A study of Mus musculus with 24 samples.

Results

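The respiratory chain and ATP synthase of the mouse are built from 2 sets of genes, one on the mitochondrial genome and one in the nucleus, and both sets were followed here through every treatment of a mouse malignant pleural effusion. Members were chosen by name and by a filter on low values. The mitochondrial set took symbols starting mt-Nd, mt-Co, mt-Cyt or mt-Atp, and the nuclear set took the Nduf (letters a, b, c, s and v), Sdh, Uqcr, Cox4 to Cox8 and Atp5 symbols. Names containing -ps, and genes with an FPKM (fragments scaled by gene length and by library depth) under 1 in at least 22 of the 24 libraries, were left out. This gave 94 members among 54505 rows, of which 13 were mitochondrial and 81 nuclear. The nuclear set held 35 subunits of complex I, 4 of complex II, 8 of complex III, 17 of complex IV and 17 of complex V, with Ndufa4 and Ndufa4l2 counted to complex IV. Another 8 names were left out as low and 8 as -ps. Just inside the threshold lay Cox8b, at 1 or more in 5 libraries, and Cox4i2, in 6. Just outside lay Cox6b2 and Cox6c2, in 1 library each.

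The effusions came from Lewis lung carcinoma (LLC), a line derived from a lung tumor of C57BL/6 mice, carried by C57BL/6 hosts of every group. On day 11 mice were treated in the pleural cavity with 1 of 4 regimens. The first was LNP-CDN, 1 µg of the cyclic dinucleotide cGAMP in liposomal nanoparticles, a ligand of the DNA-sensing adaptor STING. The second was anti-PD-L1, 30 µg of an antibody against the checkpoint ligand PD-L1. The others were the combination of both agents, and phosphate-buffered saline (PBS) as the control. On day 13, RNA was taken from digested pleural tumors and from the cells of the effusion fluid, with 3 libraries in each of the 8 groups. Each library is a mixture of carcinoma, stromal and immune cells, so fewer cells of a type and less RNA per cell cannot be told apart. Tumor tissue was digested with enzymes and fluid cells were not, and red cells were lysed in both. The labels give 3 mice per treatment but not which fluid and tumor libraries share a mouse.

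Electrons from NADH enter the chain at complex I and those from succinate at complex II. They pass through complexes III and IV to oxygen, and the proton gradient this builds drives ATP synthase, complex V. Mitochondrial DNA encodes core subunits of complexes I, III, IV and V and none of complex II. Both of its strands are copied into long transcripts that are cut into single messages, so that the level of these messages is set by mitochondrial RNA polymerase, processing and decay. Nuclear subunits are made as ordinary messages and imported as proteins, and the assembled enzymes need both sets. Activated macrophages are known to shift their use of the citric acid cycle and of the respiratory chain.

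Several mitochondrial genes have near-identical copies in the nuclear genome, which bears on what their FPKM can mean. A block on chromosome 1 (GRCm38, 24611535 to 24616197, minus strand) is annotated as a run of unprocessed pseudogenes in the order of the mitochondrial genome. The copies of mt-Co2 (681 bases), mt-Atp6 (678 bases), mt-Co3 (783 bases), mt-Nd4l (294 bases) and the copied part of mt-Nd4 (876 bases) were 100% identical to the mitochondrial genes. The start of mt-Co2 (mitochondrial genome, 7013 to 7112) and of its copy Gm28661 (chromosome 1, 24615466 to 24615565, minus strand) are shown because no read inside them can be assigned to either gene by its letters. The stretch of mt-Co1 at 6381 to 6480 and its copy Gm29216 (chromosome 1, 24616098 to 24616197, minus strand) are shown with their 6 mismatched bases in capitals, all near the left end.
mt-Co2: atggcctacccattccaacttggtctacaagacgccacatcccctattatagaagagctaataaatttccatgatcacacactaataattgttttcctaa
Gm28661: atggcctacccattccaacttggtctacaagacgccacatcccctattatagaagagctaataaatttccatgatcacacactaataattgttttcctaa
mt-Co1: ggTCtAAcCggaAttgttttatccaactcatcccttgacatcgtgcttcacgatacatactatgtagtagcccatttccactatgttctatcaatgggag
Gm29216: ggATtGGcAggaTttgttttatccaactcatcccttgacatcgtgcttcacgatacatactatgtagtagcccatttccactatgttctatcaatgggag
The mt-Co2 pair has no mismatch over its 100 bases, and the mt-Co1 pair is identical to the right of the capitals.

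Windows of 50 bases that also occur in an annotated nuclear transcript made up 100% of mt-Co2, 99.9% of mt-Co3, 99.5% of mt-Atp6, 98.8% of mt-Nd4l and 98.0% of mt-Nd3. They made up 62.2% of mt-Nd4 and 51.1% of mt-Co1, 8.19% of mt-Nd2 and 7.61% of mt-Nd5. For mt-Nd1, mt-Nd6, mt-Cytb and mt-Atp8 the share was 0.0%. Only annotated transcripts were searched, so 0.0% does not exclude an unannotated copy. mt-Atp8 lies between mt-Co2 and mt-Atp6, and on chromosome 1 the copy of mt-Atp6 ends at 24614651 and that of mt-Co2 starts at 24614885. Of the 6 genes with the lowest FPKM levels, 5 were those with 98.0% or more shared windows, and the other was mt-Atp8, a short gene that overlaps mt-Atp6. The levels of mt-Co1 and mt-Nd4 covered those of the genes with smaller shares. Over all 24 libraries, mt-Nd1, mt-Nd2, mt-Nd5, mt-Nd6 and mt-Cytb lay between 97.2 and 2039 FPKM, and mt-Co1 and mt-Nd4 between 93.1 and 5523 FPKM. The remaining 6 genes, mt-Co2, mt-Co3, mt-Atp6, mt-Atp8, mt-Nd3 and mt-Nd4l, lay between 0.211 and 29.8 FPKM. The levels of these 6 genes are therefore uncertain, and their changes are given apart.

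Recovered reads per library numbered 14584438 to 26888253, and 12202 to 12694 genes reached an FPKM of 1. The mitochondrial members took 0.258 to 1.79% of the reads of a library and the nuclear members 0.479 to 0.736%. The exact Clopper-Pearson 95% intervals of these shares spanned at most 0.00613 percentage points on either side, for counting error only. The 7 carcinoma and mesothelium markers summed to 228 to 304 FPKM in tumors, against 44.3 to 109 in fluid. The 8 macrophage markers summed to 382 to 521 FPKM in tumors, against 3457 to 7621 in fluid. Y-linked Ddx3y stood at 21.6 to 23.6 FPKM with anti-PD-L1 in fluid, while the other fluid libraries held up to 0.0283 FPKM. In tumors it reached 3.27 to 3.44 FPKM with anti-PD-L1 and 3.55 FPKM in PBS replicate 1. The remaining tumor libraries held up to 0.0205 FPKM of it. Xist, of the X chromosome, stood at 8.18 to 20.0 FPKM with anti-PD-L1 in fluid, against 53.5 to 71.7 in the other fluid libraries. The source of Ddx3y, such as the sex of the mice, and anti-PD-L1 cannot be told apart in fluid. In tumors this also holds for the combination against anti-PD-L1, and the PBS tumors were mixed in Ddx3y.

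In fluid cells the mitochondrial messages were lower after LNP-CDN and after the combination, while the nuclear messages stayed close to their PBS level. The 13 mitochondrial members summed to 3169, 2306 and 3264 FPKM in the LNP-CDN libraries, 6612, 7296 and 8023 in the anti-PD-L1 libraries and 2283, 2187 and 2506 in the combination libraries, against 6611, 6724 and 7169.7 in the PBS libraries. Every LNP-CDN and combination library lay below every PBS library, and the anti-PD-L1 libraries overlapped PBS. The 81 nuclear members summed to 3496, 3564 and 3482 FPKM with LNP-CDN, 4149, 4145 and 3176 with anti-PD-L1 and 3229.97, 3161 and 3622 with the combination, against 3605, 3569 and 3864 with PBS. In the nuclear sums, too, every LNP-CDN library lay below every PBS library, but narrowly, at 3564 against 3569 FPKM for the nearest. The combination and anti-PD-L1 libraries overlapped PBS in the nuclear sums, and the lowest anti-PD-L1 library, replicate 3, lay apart from the others of its group.

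The ratio of the 2 sums within a library does not depend on how libraries are scaled to each other. On the log2 scale it was -0.29 ± 0.30 with LNP-CDN, 0.94 ± 0.35 with anti-PD-L1 and -0.52 ± 0.02 with the combination, against 0.89 ± 0.02 with PBS (SD, n = 3 each). LNP-CDN fluid was thus 2.27-fold lower than PBS in this ratio and combination fluid 2.67-fold lower. In tumors the ratio was 1.41 ± 0.15 with LNP-CDN, 1.73 ± 0.30 with anti-PD-L1 and 1.46 ± 0.11 with the combination, against 1.64 ± 0.26 with PBS (SD, n = 3 each), differences smaller than the SD of PBS. Tumor sums overlapped between all treatments for the mitochondrial members, which averaged 8839 ± 839 FPKM with LNP-CDN, 9210.3 ± 1049 with anti-PD-L1 and 8327 ± 498 with the combination, against 9700 ± 1362 with PBS.

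**Figure D1:**
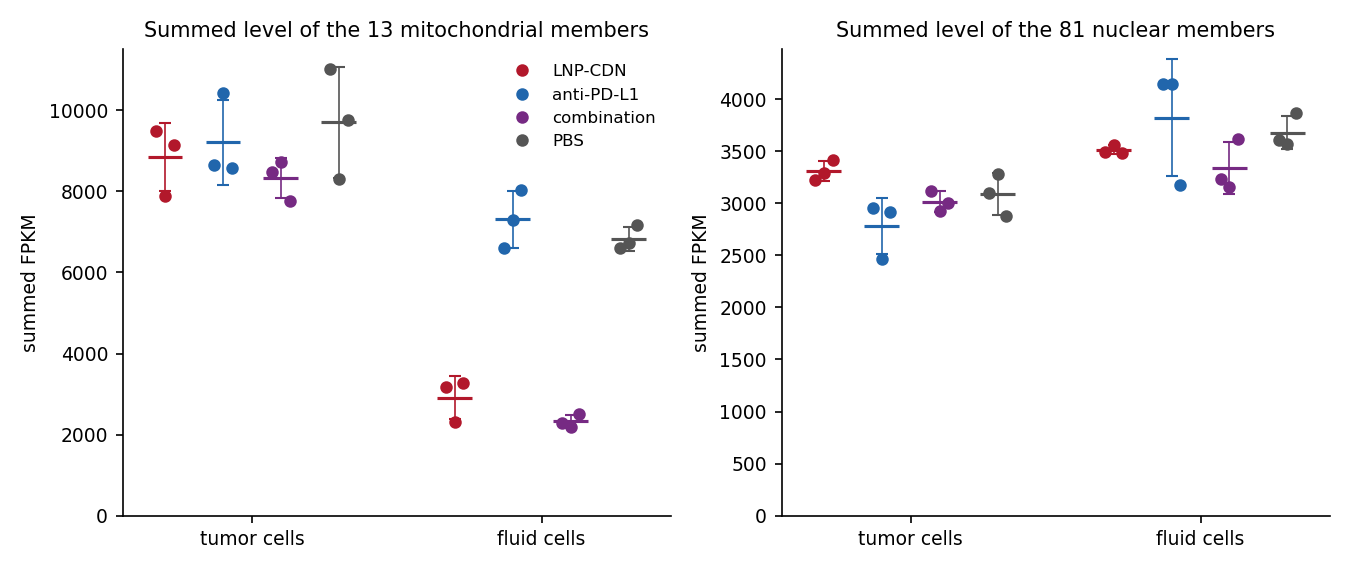
Summed FPKM (y axis) of the 13 mitochondrial members in the left panel and of the 81 nuclear members in the right, with tumor and fluid libraries side by side in each panel. Points are libraries, bars group means and whiskers SD (n = 3). In fluid the mitochondrial sums of the LNP-CDN and combination libraries lie between 2187 and 3264 FPKM, below the 6611 to 7169.7 FPKM of PBS, while in tumors no such gap is seen.

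In fluid LNP-CDN against PBS, 10 of the 13 mitochondrial members were lower and 0 higher (76.9% lower), beside 12.3% of all 13518 genes tested lower and 13.7% higher. Called means an adjusted p under 0.05 in limma, two-sided, with changes on the log2(FPKM + 1) scale, which understates those of low genes. The median change of the 13 members was -1.23, beside 0.00 over all genes. The same 10 members were lower in the combination against the same PBS libraries, with a median of -1.34, where 14.4% of all genes were lower and 15.6% higher.

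Complex I members on the mitochondrial genome form the proton-pumping arm. mt-Nd6 (13552 to 14070, minus strand), the only member on that strand, had 129, 97.2 and 143 FPKM in LNP-CDN fluid and 110.0, 109 and 118 in combination fluid, against 385, 394 and 397 in PBS fluid. The groups did not overlap, and mt-Nd6 fell by 1.68 ± 0.13 (SE) with LNP-CDN (adjusted p = 4.09e-05) and by 1.80 ± 0.13 with the combination (adjusted p = 3.31e-05). mt-Nd5 (11742 to 13565, plus strand) had 154, 102 and 167 FPKM with LNP-CDN and 119.8, 118 and 126 with the combination, against 426, 448 and 416 with PBS. Its changes were -1.64 ± 0.16 and -1.82 ± 0.16 (adjusted p = 0.000125 and 6.66e-05). mt-Nd1 changed by -1.45 and -1.79, mt-Nd4 by -1.35 and -1.81, and mt-Nd2 by -1.23 and -1.58. The kit does not mark strand, so antisense reads over mt-Nd6 cannot be told apart from its own. The low-level mt-Nd3 and mt-Nd4l did not pass, at -0.61 (adjusted p = 0.0602) and -0.87 (adjusted p = 0.0924) with LNP-CDN and -0.32 and -0.52 with the combination.

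Cytochrome b, the single mitochondrial subunit of complex III and its quinone-binding core, had 476, 294 and 477 FPKM of mt-Cytb (14145 to 15288) with LNP-CDN and 286, 266 and 345 with the combination, against 1008, 1017 and 1155 with PBS. It fell by 1.38 ± 0.19 (adjusted p = 0.000728) and by 1.83 ± 0.19 (adjusted p = 0.000135). LNP-CDN replicate 2 was the lowest of its group here, as it was for the mitochondrial sum.

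Complex IV reduces oxygen at a centre carried by the mt-Co1 protein. mt-Co1 (5328 to 6872) had the highest FPKM listed for a mitochondrial member in these groups. It stood at 1610.4, 1308 and 1699 FPKM with LNP-CDN and 1266, 1195 and 1298 with the combination, against 3092, 3109 and 3344 with PBS. Its changes, -1.06 ± 0.16 (adjusted p = 0.000981) and -1.34 ± 0.16 (adjusted p = 0.000248), were smaller than those of mt-Nd6 or mt-Cytb. The uncertain mt-Co2, which carries the copper site that takes electrons from cytochrome c, had 4.43, 6.13 and 5.32 FPKM with LNP-CDN and 7.45, 5.47 and 7.10 with the combination, against 10.5, 11.4 and 12.3 with PBS. It changed by -0.98 ± 0.14 and -0.70 ± 0.14, and mt-Co3, a structural subunit, by -1.29 ± 0.17 and -1.03 ± 0.17. All of these passed the test.

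Complex V holds 2 mitochondrial subunits in its membrane part, and mt-Atp6 forms the proton channel. It had 4.35, 4.43 and 3.08 FPKM with LNP-CDN and 7.30, 3.21 and 5.28 with the combination, against 9.75, 11.5 and 9.39 with PBS, changes of -1.19 ± 0.23 (adjusted p = 0.00437) and -0.89 ± 0.23 (adjusted p = 0.0147). The call in the combination was lost when 1 library was left out (adjusted p = 0.0505 without PBS replicate 2). mt-Atp8 did not pass, at -0.70 (adjusted p = 0.0724) and -0.22 (adjusted p = 0.567). In the 5 genes outside the chromosome 1 block the changes lay between -1.68 and -1.23 with LNP-CDN, and between -1.83 and -1.58 with the combination. In the 6 low genes they lay between -1.29 and -0.61 with LNP-CDN, and between -1.03 and -0.22 with the combination.

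**Figure D2:**
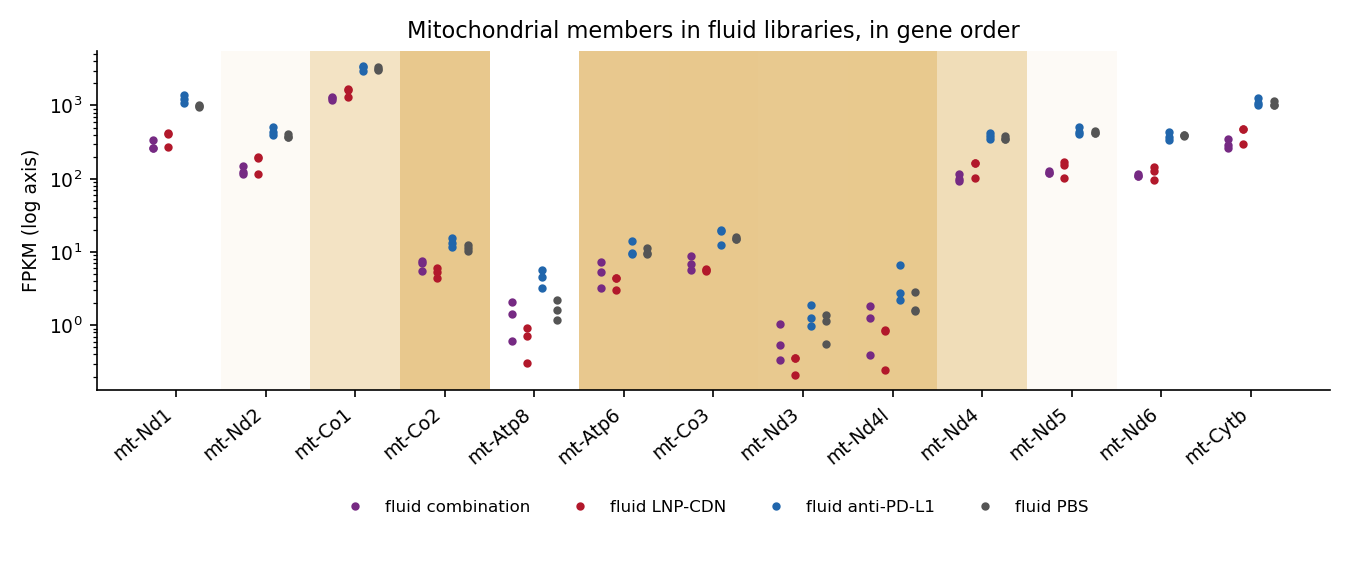
FPKM of the 13 mitochondrial members in the 12 fluid libraries, on a log axis and in their order along the mitochondrial genome. Each point is a library, and the shading gives the share of 50-base windows that an annotated nuclear transcript also holds. In the lightly shaded genes at 97.2 FPKM or more, LNP-CDN and combination points lie below the anti-PD-L1 and PBS points, and mt-Atp8 has no shading although its level is low.

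Anti-PD-L1 alone left the mitochondrial members near PBS in fluid. For mt-Cytb the anti-PD-L1 libraries had 1021, 1089 and 1249.6 FPKM, overlapping the PBS libraries, and the change was 0.08 ± 0.19. One member was called higher, mt-Atp8, at 3.19, 5.62 and 4.56 FPKM with anti-PD-L1 against 1.61, 2.24 and 1.19 with PBS. That change of 1.02 ± 0.26 (adjusted p = 0.0301) was lost with limma-voom, a smaller pseudocount, no filter, rescaling, or without PBS replicate 1 or 3 or anti-PD-L1 replicate 2 or 3 (adjusted p up to 0.109), and its level is among the uncertain ones. Of all genes 5.47% were higher and 7.49% lower. No nuclear member of the 77 tested passed, with 3 at an unadjusted p under 0.05 and 0 with limma-voom, but without anti-PD-L1 replicate 3 there were 9.

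The combination against anti-PD-L1 alone gave lower values for 12 of the 13 mitochondrial members, all but mt-Nd3, where 18.9% of all genes were lower and 18.4% higher. mt-Nd1 differed most, with 266, 259 and 333 FPKM in the combination against 1079, 1223 and 1396 with anti-PD-L1, a change of -2.10 ± 0.18 (adjusted p = 4.10e-05). Of the 77 nuclear members 17 were lower and 1 higher, and without anti-PD-L1 replicate 3 the calls numbered 38. The combination against LNP-CDN alone gave no call in limma among the members or among all 13518 genes (0.0% called), and limma-voom called no member. There, 2 mitochondrial and 1 nuclear member had an unadjusted p under 0.05.

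Among the nuclear members in fluid, 9 of 77 tested were lower with LNP-CDN (11.7%), a share near the 12.3% of all genes, and 0 were higher. Their median change was -0.04. With the combination 18 of 77 were lower (23.4%) and 1 was higher, beside 14.4% and 15.6% of all genes, with a median of -0.11. The count was 5 with LNP-CDN without PBS replicate 1 or 3 or LNP-CDN replicate 2. In the combination it was 6 or 7 calls without PBS replicate 1 or 3 or combination replicate 1 or 2, and 11 without PBS replicate 2. After rescaling to equal FPKM sums there were 4 calls with LNP-CDN and 8 with the combination. In combination fluid 1123 of all genes were then higher and 1624 lower, instead of 2111 and 1953. The row of highest FPKM, a gene of 57 bases, held 3.59 to 42.5% of the FPKM sum of a library. The share of this row therefore enters every rescaled value, and its part in the lost calls was not tested. Atp5a1, Atp5d, Atp5g1, Ndufa4 and Uqcrfs1 were called in both comparisons whichever library was left out. All 9 of the first were among the 18 of the second, and both comparisons use the same PBS libraries. The 4 members not tested, Cox8b, Cox6a2, Ndufa4l2 and Ndufb2, were low in fluid.

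By complex, the nuclear calls with LNP-CDN were 3 of 34 in complex I, 0 of 4 in complex II, 1 of 8 in complex III, 2 of 14 in complex IV and 3 of 17 in complex V. With the combination they were 5 of 34, 0 of 4, 3 of 8, 3 of 14 lower with 1 higher, and 7 of 17. Atp5a1 (chromosome 18, 77773729 to 77782869), the alpha subunit of the catalytic head of ATP synthase, had 157, 146 and 161 FPKM with LNP-CDN and 150.5, 143 and 151 with the combination, against 197, 199.6 and 199 with PBS. The groups did not overlap, and it fell by 0.36 ± 0.07 (adjusted p = 0.00322) and by 0.42 ± 0.07 (adjusted p = 0.00113). Atp5b, the beta subunit that carries the catalytic sites, changed by -0.25 ± 0.08 in the combination (adjusted p = 0.0352). Atp5g1, one of 3 genes for the rotating c subunit, had 11.1, 9.58 and 10.6 FPKM with LNP-CDN and 9.94, 9.28 and 9.60 with the combination, against 14.4, 14.9 and 15.2 with PBS. It changed by -0.47 ± 0.11 and -0.58 ± 0.11.

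Ndufa4 (chromosome 6, 11900292 to 11907497), a subunit of complex IV that was first assigned to complex I, showed the largest decrease among the nuclear members called with LNP-CDN. It had 29.0, 30.0 and 30.8 FPKM with LNP-CDN and 26.3, 26.0 and 31.8 with the combination, against 40.8, 42.2 and 43.9 with PBS. The changes were -0.49 ± 0.09 (adjusted p = 0.00444) and -0.58 ± 0.09 (adjusted p = 0.00138). Cox7a2l, counted here to complex IV, changed by -0.34 ± 0.10 and -0.33 ± 0.10. Uqcrfs1, the Rieske iron-sulfur protein of complex III, had 51.4, 51.0 and 52.2 FPKM with LNP-CDN and 51.3, 46.5 and 50.6 with the combination, against 66.3, 63.0 and 65.0 with PBS. Its changes were -0.32 ± 0.07 and -0.38 ± 0.07.

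In complex I the called nuclear members are core subunits that carry electrons or accessory ones. Ndufs1, which holds iron-sulfur clusters, had 8.65, 8.41 and 9.43 FPKM with LNP-CDN and 8.46, 8.63 and 8.73 with the combination, against 10.2, 10.4 and 10.3 with PBS, a change of -0.20 ± 0.06 and -0.23 ± 0.06. Ndufa10 passed in both too, and Ndufv1, which binds NADH, and the X-linked Ndufb11 passed in the combination, at -0.31 ± 0.09 and -0.45 ± 0.14. Complex II, the only complex without mitochondrial genes, had no limma call in either comparison, and 0 of its 4 members had an unadjusted p under 0.05. Its flavoprotein Sdha had 52.1, 52.7 and 54.2 FPKM with LNP-CDN and 50.1, 52.8 and 52.7 with the combination, against 48.7, 49.7 and 49.0 with PBS. One nuclear member was higher in the combination, Cox7a1, the heart and muscle isoform of a small complex IV subunit. It had 6.97, 6.68 and 6.84 FPKM with the combination, 4.25, 7.70 and 4.26 with LNP-CDN and 2.95, 3.91 and 4.67 with PBS, a change of 0.71 ± 0.19 in the combination (adjusted p = 0.0156, or 0.0633 without PBS replicate 1).

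**Figure D3:**
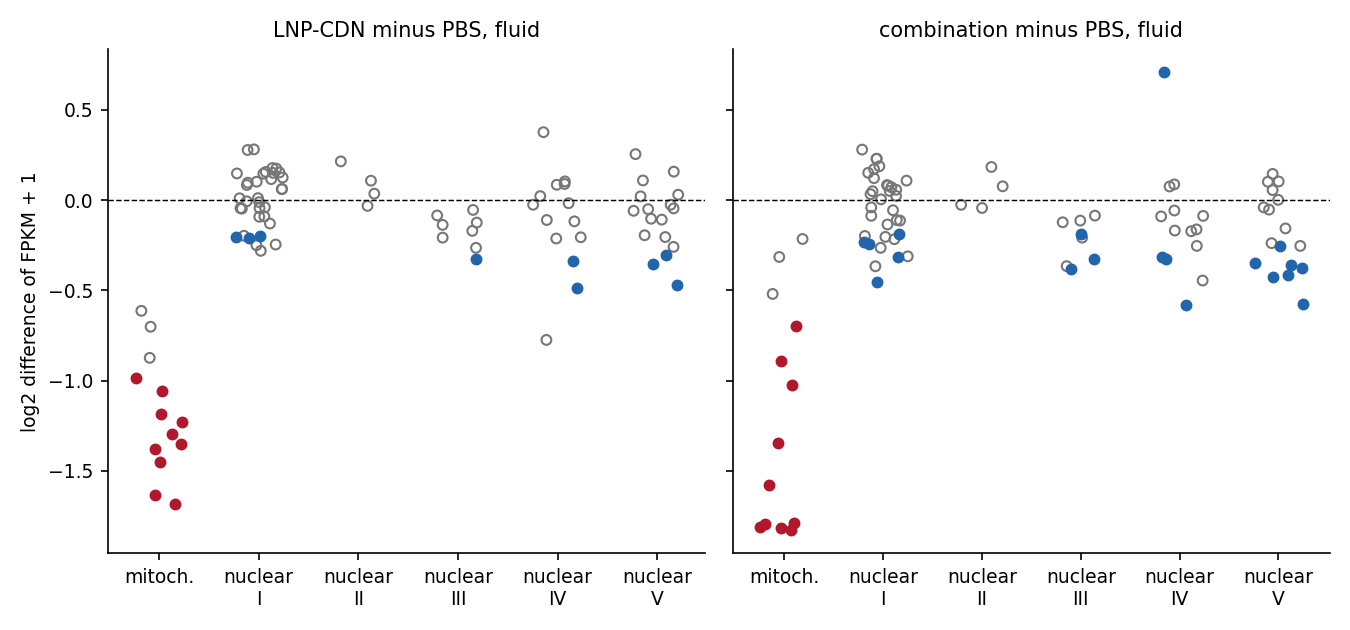
Log2 differences of FPKM + 1 in fluid, LNP-CDN and combination against PBS, for the mitochondrial set and for the nuclear members by complex. Each point is a member, filled where the adjusted p is under 0.05, and the dashed line is the median of all genes. Mitochondrial points reach down to -1.83, while the lowest called nuclear points lie at -0.58.

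The promoters of nuclear members are known for sites of NRF1, of ETS factors such as GABP, and of YY1. The promoter table (RefSeq, GRCm38.p6; 250 bases before to 50 after a start) held 66 of the 81 nuclear members. Searching both strands, gcatgcgc (NRF1 core) occurred in 10 of them (15.2%), beside 3.05% of 27025 genes, ccggaag (ETS core) in 16 (24.2%), beside 9.93%, and aagatggc (YY1 core) in 10 (15.2%), beside 3.19%. Among the 14 matched members that were lower in combination fluid, 3 held the NRF1 core, 2 the ETS core and 0 the YY1 core. Among the 50 other matched members tested, the counts were 7, 14 and 10. The 3 promoters with an NRF1 core among the lowered members are shown, with the motifs in capitals, Atp5g2 (chr15:102670998-102671297, minus strand), Atp5l (chr9:44920693-44920992, minus strand) and Uqcrc1 (chr9:108936398-108936697, plus strand).
Atp5g2: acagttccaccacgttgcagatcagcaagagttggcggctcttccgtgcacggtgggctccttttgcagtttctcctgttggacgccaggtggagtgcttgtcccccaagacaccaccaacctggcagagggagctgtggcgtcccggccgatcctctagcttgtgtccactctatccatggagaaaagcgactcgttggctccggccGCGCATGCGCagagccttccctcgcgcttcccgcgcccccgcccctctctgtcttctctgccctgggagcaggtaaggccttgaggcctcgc
Atp5l: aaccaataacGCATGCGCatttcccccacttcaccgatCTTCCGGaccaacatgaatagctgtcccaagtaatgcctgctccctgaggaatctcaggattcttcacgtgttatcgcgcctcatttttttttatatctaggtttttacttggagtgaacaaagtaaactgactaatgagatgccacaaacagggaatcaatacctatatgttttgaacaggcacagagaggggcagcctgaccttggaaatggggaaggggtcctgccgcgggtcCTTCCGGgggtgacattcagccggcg
Uqcrc1: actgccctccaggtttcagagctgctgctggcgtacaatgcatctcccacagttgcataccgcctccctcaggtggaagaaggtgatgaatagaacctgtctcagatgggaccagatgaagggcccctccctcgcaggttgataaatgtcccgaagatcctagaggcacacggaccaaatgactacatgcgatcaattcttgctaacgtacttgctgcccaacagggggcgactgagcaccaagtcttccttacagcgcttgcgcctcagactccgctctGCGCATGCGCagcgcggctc
In Atp5g2 and Uqcrc1 the capitals are overlapping NRF1 matches of both strands, and Atp5l holds 1 NRF1 and 2 ETS matches. A match is a run of letters and not a measured binding site.

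In tumors the treatments moved the members little. LNP-CDN against PBS gave 0 of 13 mitochondrial calls in limma and in limma-voom (1 at an unadjusted p under 0.05) and 2 of 80 nuclear ones, beside 1.89% of 13173 genes higher and 1.47% lower. Atp5j2, the f subunit of ATP synthase, had 19.0, 21.0 and 21.97 FPKM with LNP-CDN against 17.8, 16.3 and 15.1 with PBS, a change of 0.32 ± 0.07 (adjusted p = 0.0396). Ndufv3, an accessory subunit of complex I, had 9.35, 10.5 and 10.3 FPKM against 14.2, 14.6 and 12.3 with PBS, a change of -0.41 ± 0.07 (adjusted p = 0.0221). Neither group pair overlapped, and both calls were lost without LNP-CDN replicate 3 (adjusted p = 0.141 and 0.0745). For mt-Cytb, LNP-CDN tumors had 1794, 1384 and 1723 FPKM against 2039, 1652 and 1784 with PBS, a change of -0.16 ± 0.13.

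Anti-PD-L1 in tumors gave no call among members or all genes (0.0% called). There, 0 mitochondrial and 16 nuclear members had an unadjusted p under 0.05, and limma-voom called none of them. The combination against PBS likewise gave no member call in limma, beside 0.881% of genes higher and 0.304% lower, with 1 mitochondrial and 2 nuclear members at an unadjusted p under 0.05 and 1 nuclear call in limma-voom. The combination against anti-PD-L1 gave none, beside 1.16% and 0.387% of genes, with 0 mitochondrial and 19 nuclear members at an unadjusted p under 0.05. Against LNP-CDN it gave none either, with 0.0% of genes called, and 1 mitochondrial and 6 nuclear members at an unadjusted p under 0.05. In both of these limma-voom called no member.

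The muscle isoforms varied most between tumor libraries. Cox6a2 had 2.80, 1.00 and 6.21 FPKM with LNP-CDN and 6.22, 0.847 and 1.89 with the combination, against 0.307, 0.611 and 0.707 with PBS. Cox8b had 3.30, 0.0995 and 6.04 FPKM with LNP-CDN and 5.58, 0.107 and 1.68 with the combination, and PBS tumors were listed at 0, 0.433 and 0. Neither passed the test in LNP-CDN tumors (1.31 with adjusted p = 0.192 and 1.51 with adjusted p = 0.247). The summed level of 8 skeletal muscle markers ranged from 5.72 to 198 FPKM with LNP-CDN, 7.55 to 105 with anti-PD-L1 and 16.2 to 124 with the combination, against 4.91 to 18.03 with PBS. Myh4 was at 0 in 10 of the 24 libraries and Myh1 in 8. Their part in the 2 isoforms was not tested.

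The effect of LNP-CDN itself differed between tissues. In the fit over 24 libraries, the change in tumor minus the change in fluid was positive and past the threshold for 11 of 13 mitochondrial members (median 1.28) and for 6 of 81 nuclear ones, beside 7.86% of 15222 genes positive and 7.4% negative. The largest called difference was that of mt-Atp6, one of the 6 genes of uncertain level, at 1.74 ± 0.30 (adjusted p = 0.000852). In the 5 genes outside the chromosome 1 block the differences lay between 1.22 and 1.63, the highest in mt-Nd6 (1.63 ± 0.22, adjusted p = 0.000129). For the combination 9 of 13 mitochondrial members (median 1.15) and 3 of 81 nuclear ones differed in this direction, beside 7.86% of genes positive and 7.17% negative. The 3 nuclear members were Atp5a1, Atp5d and Atp5g1, and they also differed for LNP-CDN. Without tumor PBS replicate 1 there was 1 such nuclear call. After rescaling to equal FPKM sums, with the row of highest FPKM included, there was 0 for either treatment.

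**Figure D4:**
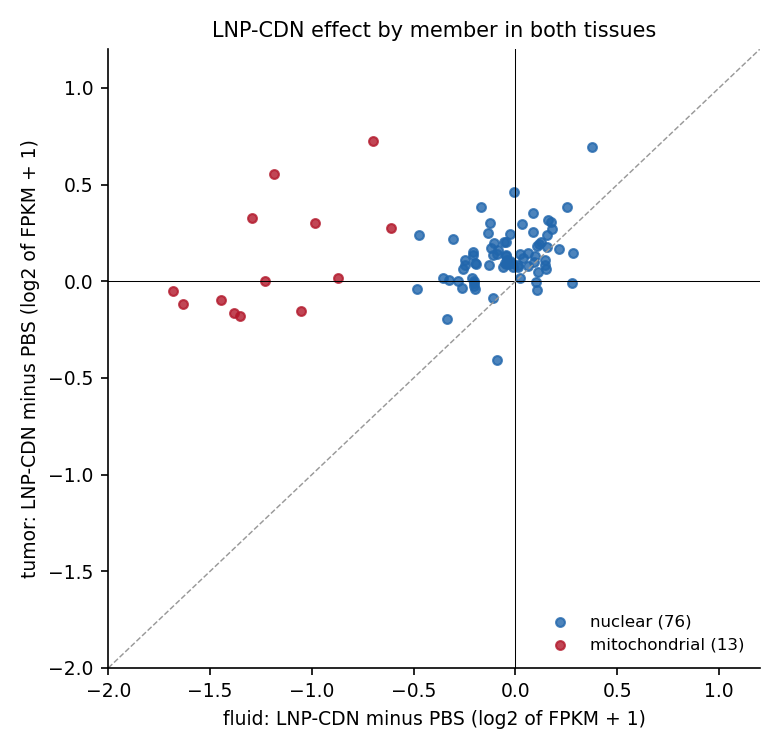
The LNP-CDN change against PBS in fluid (x axis) and in tumor (y axis), as log2 differences of FPKM + 1, for 13 mitochondrial and 76 nuclear members tested in both tissues. The dashed line marks equal changes. Mitochondrial points lie left of the line at fluid changes of -1.68 to -0.61, with tumor changes of -0.18 to 0.73.

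Tumor and fluid also differed without treatment. In PBS mice, tumors had 7 of 13 mitochondrial members higher than fluid and 0 lower (4 of them whichever library was left out), with a median change of 0.47, beside 37.0% of 15222 genes higher and 37.9% lower. mt-Cytb had 2039, 1652 and 1784 FPKM in PBS tumors against 1008, 1017 and 1155 in PBS fluid, a change of 0.78 ± 0.17 (adjusted p = 0.000287). Of the 81 nuclear members 9 were higher and 45 lower in PBS tumors, with a median of -0.32. This split rests on the scaling, with 20 higher and 5 lower when libraries are rescaled to equal FPKM sums, 29 and 14 when that is done without the row of highest FPKM, and 21 and 20 with scaling to total reads. All genes had 5625 higher and 5768 lower as tested, and 7305 higher and 3617 lower after the first of these. These scalings move the median of all genes by 0.27 to 0.43 in the tissue comparisons.

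Some members kept their direction and call under all of these scalings. Cox7a2l had 172, 142 and 147 FPKM in PBS tumors against 82.2, 71.3 and 91.0 in PBS fluid, a change of 0.91 ± 0.10 (adjusted p = 1.68e-07). Atp5s, a factor that couples the parts of ATP synthase, changed by 0.95 ± 0.11 and Ndufa4l2, the hypoxia-linked relative of Ndufa4, by 1.18 ± 0.24. Cox6b1, an intermembrane-space subunit of complex IV, had 56.7, 67.5 and 57.7 FPKM in PBS tumors against 136, 133 and 144 in PBS fluid, a change of -1.17 ± 0.15 (adjusted p = 5.34e-07). Uqcrb was lower too, at -0.96 ± 0.13. By gene length, counts were made in the main fit only and not under the other scalings. There, nuclear members with genes under 1000 bases had 0 higher and 15 lower of 22 (median -0.53, beside -0.06 for all genes of that length). Those over 2000 bases had 5 higher and 15 lower of 29 (median -0.23, beside 0.02).

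After LNP-CDN the tissue gap of the mitochondrial members was wider. All 13 were higher in LNP-CDN tumors than in LNP-CDN fluid (median 1.74), beside 37.5% of all genes higher and 38.8% lower. mt-Cytb had 1794, 1384 and 1723 FPKM in these tumors against 476, 294 and 477 in fluid, a change of 2.00 ± 0.17 (adjusted p = 1.34e-09). Of the nuclear members 16 were higher and 29 lower, with a median of -0.18. Rescaling to equal sums, with the row of highest FPKM included, turned this to 27 higher and 2 lower.

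Other genes of the mitochondrial system in fluid were counted from lists made with earlier results known. Beside them, 13.7% of all genes were higher and 12.3% lower with LNP-CDN, and 15.6% and 14.4% with the combination. Of 17 ribosomal and transfer RNAs of the mitochondrial genome tested, 5 were lower with LNP-CDN and 6 with the combination, all of them transfer RNAs, and 0 were higher. The summed level of the list was 631 to 795 FPKM with LNP-CDN and 614 to 1006 with the combination, against 991 to 1163 with PBS, so that the combination overlapped PBS. mt-Tp changed by -1.09 ± 0.11 and mt-Tl1 by -1.79 ± 0.27 with LNP-CDN. Capture was with poly-T beads, and reads of a transfer RNA cannot be told apart from those of a longer transcript that spans it. The chromosome 1 copies Gm28437, Gm10925, Gm28438, Gm28661, Gm29216 and Gm28439 were lower with LNP-CDN (-1.46 to -0.70). Reads in the identical stretches of these copies cannot be told apart from those of the mitochondrial genes. Gm28438 has 1 mismatch to its mitochondrial gene and Gm29216 has 6. In this kit, overlapping genes on both strands cannot be told apart either.

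Citric acid cycle genes were lower for 7 of 18 with LNP-CDN and 8 with the combination, and 0 were higher. With LNP-CDN, mitochondrial isocitrate dehydrogenases Idh2 and Idh3a changed by -0.57 ± 0.07 and -0.61 ± 0.09, and the pyruvate dehydrogenase subunit Pdha1 by -0.44 ± 0.06. Protein import genes were lower for 4 of 22 and 5 of 22, among them the outer-membrane pore Tomm40 (-0.46 ± 0.07 with LNP-CDN) and the inner-membrane pore Timm23 (-0.34 ± 0.06). Of 43 assembly factors tested, 10 were higher and 0 lower with LNP-CDN, and 13 were higher and 1 lower with the combination. Whether these counts differ from the shares of all genes was not tested. Timmdc1 and Tmem126b, which help assemble complex I, changed by 0.38 ± 0.08 and 0.60 ± 0.14, and Coa4 and Coa5, which act on complex IV, by 0.57 ± 0.14 and 0.56 ± 0.13.

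Genes that make or handle mitochondrial RNA moved in both directions. Of 18 replication and transcription genes 2 were higher and 2 lower with LNP-CDN, and Tfam, the packaging and transcription factor, and Polrmt, the polymerase, did not pass at 0.10 and 0.14. Of 18 RNA stability genes 1 was higher and 2 lower with LNP-CDN, and 3 and 4 with the combination. Pnpt1, polynucleotide phosphorylase, which degrades mitochondrial RNA and is known in other cells as an interferon-induced gene, changed by 0.54 ± 0.09 with LNP-CDN (adjusted p = 0.00205) and 0.58 ± 0.09 with the combination (adjusted p = 0.00112). Tbrg4, of the FASTK family of mitochondrial RNA factors, changed by -0.45 ± 0.09 and -0.35 ± 0.09, and Lrpprc, which stabilises these messages, did not pass at 0.01 with LNP-CDN. Mitochondrial ribosomal proteins were higher for 9 and lower for 2 of 77 with LNP-CDN, and higher for 9 and lower for 5 with the combination. Fission, fusion and mitophagy genes gave 1 higher, Sqstm1, and 2 lower, Pink1 and Bnip3l, of 12 with LNP-CDN.

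Cell markers also differed between the fluid groups, and their patterns over the 4 treatments were not all alike. Alas2, the first enzyme of heme synthesis in erythroid cells, stood at 0.289 to 0.949 FPKM with LNP-CDN, 16.9 to 42.6 with anti-PD-L1 and 0.0749 to 0.551 with the combination, against 19.5 to 59.4 with PBS. It was above 0 in all libraries and was called lower in LNP-CDN and combination fluid, at -4.40 ± 0.40 and -4.80 ± 0.40 (adjusted p = 8.32e-05 and 4.52e-05). Red cells were lysed in all samples. The 5 B-cell markers, all called lower in both treatments, summed to 3.62 to 6.60 FPKM with LNP-CDN, 6.91 to 8.81 with anti-PD-L1 and 4.82 to 30.0 with the combination, against 39.4 to 80.4 with PBS. The 6 neutrophil markers, of which 2 were lower with LNP-CDN and 4 with the combination, summed to 815 to 2830.1 FPKM with LNP-CDN, 626 to 1071 with anti-PD-L1 and 822 to 1847 with the combination, against 3265 to 5129 with PBS. Neutrophil, B-cell, T-cell and NK-cell sums were below PBS with anti-PD-L1, a group that differed from PBS in Ddx3y and in the endothelium sum as well. The T-cell sum was 5.19 to 12.6 FPKM with anti-PD-L1 against 17.1 to 23.9 with PBS. For NK cells it was 2.38 to 8.01 against 13.1 to 15.9. The 8 macrophage markers summed to 3886 to 5235 FPKM with LNP-CDN and 3897 to 4279.7 with the combination, against 3646 to 4303 with PBS, with 2 higher and 2 lower in each. The 5 endothelium markers summed to 9.90 to 14.7 FPKM with LNP-CDN, 3.65 to 6.12 with anti-PD-L1 and 14.4 to 17.2 with the combination, against 6.94 to 8.70 with PBS. Only Kdr and Pecam1 of them were tested, and Kdr was higher in both, at 1.60 ± 0.17 with LNP-CDN and 1.59 ± 0.17 with the combination (adjusted p = 0.000183 and 0.000165). The 5 fibroblast markers summed to 67.8 to 70.6 FPKM with LNP-CDN, 72.7 to 122 with anti-PD-L1 and 44.0 to 55.7 with the combination, against 67.9 to 88.2 with PBS, with 3 lower in the combination and 0 called with LNP-CDN. The 5 monocyte markers had 2 higher and 2 lower with LNP-CDN and 3 higher and 2 lower with the combination. Of the 6 T-cell markers 2 were lower with LNP-CDN and 0 were called with the combination, and of the 4 NK-cell markers 1 was higher in each. In fluid the 7 carcinoma and mesothelium markers summed to 55.3 to 76.1 FPKM with LNP-CDN and 44.3 to 61.6 with the combination. With anti-PD-L1 their sum was 64.9 to 109 FPKM, against 54.7 to 64.3 with PBS. The part of these cell types in the mitochondrial decrease was not tested.

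Over the 12 fluid libraries, the genes whose log2(FPKM + 1) ran most like the mean of the mitochondrial members were Wipi1 (r = 0.993), Cnbp (0.991), Adm (0.989), Eif5a (0.989), Tubb5 (0.988), Abhd14a, Hdlbp, Galk1, Anp32e and Snd1 (0.985). The r is Pearson's and a description, since the libraries fall into 2 clusters by treatment.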

How the data were processed

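The 24 libraries were grouped by their titles. Per the labels' protocols, messages were captured with poly-T beads and the library kit keeps no strand. The authors deposited 1 table of FPKM values per gene and library. Tools named in the submitters' processing notes are fastp, STAR, featureCounts and DESeq2, with mm9 as the build and no roles or versions. How reads that match several places were counted is not given in the sources used here. Coordinates in the table match GRCm38 (GENCODE M21) for 53474 of 54383 gene IDs found, 88 of the 94 members among them, and are given as such.

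FPKM times gene length and 1 factor per library came out as whole reads (tolerance 0.01 read) for 99.92 to 99.97% of values. The 21 genes for which it did not (9 in fluid, 19 in tumor, no member) were left out of tests. Changes were tested with limma 3.58.1 (R 4.3.3, trend) on log2(FPKM + 1), keeping genes that reached 1 FPKM in 3 or more libraries of the fit, with Benjamini-Hochberg adjustment over all genes tested. One fit of 12 libraries per tissue served the treatments and one of 24 the tissue differences. With 3 libraries against 3, exact permutation p-values end at 0.1. Alternatives were a pseudocount of 0.1, no filter, rescaled libraries, only the 6 libraries compared, limma-voom on recovered reads, a replicate block, and leaving out each library; and, added after seeing the data, rescaling without the row of highest FPKM and scaling to total reads. Libraries were not treated as paired by replicate number in the main fits, since the labels do not state a pairing. The fits were tested on simulated data. Genes were named by a rule: all mitochondrial members, set subunits and isoform pairs, and up to 6 called nuclear members in each direction and comparison, with up to 4 called genes of each other list. The members named as threshold neighbours, Ndufb2, and Ndufa10, Atp5g2, Atp5l and Uqcrc1 where outside it, were chosen with values seen. Some genes among the members and lists are not reported here by name. The members and lists were chosen with earlier results of these data known. Python 3.11.15, pandas 2.3.3, numpy 2.4.6 and matplotlib 3.10.9 made the tables and figures.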

Additional observations from a re-analysis of the deposited data

Results flagged for a closer look

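The effect of LNP-CDN against PBS differed between tumor and fluid, by a test of the difference itself, in 17 members, of which 16 are given here. The log2 differences, tumor minus fluid, were 1.74 for mt-Atp6, 1.63 for mt-Nd6, 1.62 for mt-Co3, 1.52 for mt-Nd5, 1.43 for mt-Atp8, 1.35 for mt-Nd1, 1.28 for mt-Co2, 1.23 for mt-Nd2, 1.22 for mt-Cytb, 1.17 for mt-Nd4 and 0.90 for mt-Co1. For nuclear members they were 0.71 for Atp5g1, 0.52 for Atp5d, 0.39 for Uqcrc1, 0.37 for Atp5a1 and 0.33 for Uqcrfs1. The call of mt-Atp8 was lost without tumor LNP-CDN replicate 1 (adjusted p = 0.123) and that of Uqcrfs1 without tumor PBS replicate 1 (0.0794).

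The effect of the combination differed in the same way in 12 members. The differences were 1.69 for mt-Nd6, 1.61 for mt-Nd5, 1.57 for mt-Cytb, 1.56 for mt-Nd1, 1.46 for mt-Nd4, 1.39 for mt-Nd2, 1.15 for mt-Co1, 1.11 for mt-Co3 and 1.05 for mt-Atp6. For nuclear members they were 0.64 for Atp5g1, 0.53 for Atp5d and 0.30 for Atp5a1. Both sets of differences share the PBS libraries, and the levels of mt-Atp6, mt-Atp8, mt-Co2 and mt-Co3 behind them are uncertain.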

How the results depend on the processing

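The mitochondrial decrease in fluid kept its direction under every setting run, with 9 to 12 members called with LNP-CDN and 9 to 10 with the combination. Calls among nuclear members moved more. Rescaling to equal FPKM sums also carries the share of the row of highest FPKM, 3.59 to 42.5% of a library's sum. With LNP-CDN in fluid (9), they numbered 4 after rescaling, 14 with total-read scaling and 5 to 8 with 1 library left out. With the combination (19), they numbered 12 without a filter, 8 after rescaling and 6 to 15 with 1 library left out. Against anti-PD-L1 (18), they numbered 7 after rescaling and 13 to 38 with 1 library left out. The single mitochondrial call for anti-PD-L1 became 0 with a pseudocount of 0.1, without a filter, after either rescaling and with limma-voom, and was 0 to 1 with 1 library left out. The nuclear count there (0) became 1 with only the 6 libraries compared and 0 to 9 with 1 library left out.

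In tumors, the 2 nuclear calls for LNP-CDN became 0 without a filter, after rescaling or with only 6 libraries, 1 with rescaling without the row of highest FPKM or total-read scaling, and 0 to 1 with 1 library left out. The combination against PBS had 1 nuclear call with limma-voom, and it and the combination against anti-PD-L1 had 0 to 1 with 1 library left out. Between PBS tumor and fluid, mitochondrial calls (7) became 12 after either rescaling, 11 with total-read scaling and 5 to 7 with 1 library left out, and nuclear calls (54) became 25 after rescaling. With LNP-CDN nuclear calls (45) became 29 after rescaling. Nuclear differences in the LNP-CDN effect (6) became 0 after rescaling and 4 to 9 with 1 library left out, and those in the combination effect (3) became 0 and 1 to 4. The difference of the log2 ratio in fluid, combination minus PBS (-1.41), was -1.10 as a mean of logs, -1.64 with the genes outside the copy and -1.36 from whole reads. The cause of these shifts was not tested.

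The labels do not say whether replicate numbers pair the libraries, and the main fits did not pair them. With a replicate block the combination had 11 nuclear calls in fluid and LNP-CDN 1 in tumor, and no other count of calls moved by over 1.5 times.

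Between PBS tumor and fluid, negative changes of 7 members, called except for Sdha (-0.0043), turned positive after rescaling, rescaling without the top row and total-read scaling. The 3 values in that order were 0.23, 0.23 and 0.12 for Cox4i1, 0.12, 0.11 and 0.0048 for Cox7b, 0.48, 0.47 and 0.36 for Sdha, 0.16, 0.15 and 0.045 for Sdhb, 0.25, 0.24 and 0.13 for Uqcrc2 and 0.15, 0.15 and 0.043 for Uqcrfs1. For Cox7a2 the first 2 settings gave 0.068 and 0.062. With LNP-CDN, where the changes of Cox4i1, Cox7b and Sdha were negative and not called and those of the others were called decreases, rescaling without the top row gave 0.051 for Atp5f1, 0.46 for Cox4i1, 0.078 for Cox7a2, 0.30 for Cox7b, 0.32 for Sdha and 0.11 for Sdhb. There total-read scaling gave 0.38 for Cox4i1, 0.24 for Sdha and 0.023 for Sdhb, and rescaling gave 0.0042 for Sdhb. Of 4052 values of single genes under other settings, 3840 kept direction and call, 128 lost the call, 54 gained it and 30 turned, and with 1 library left out none of 3654 turned.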
